A study of Mus musculus with 5 samples.

Results

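Windows around transcription start sites (TSSs) in which 1 strong nucleosome signal lay on either side of a depleted centre, 270 to 430 bp apart, were described in mouse leukaemia cells with and without PHF6. The values came from ATAC-seq, in which the Tn5 transposase cuts accessible DNA and the fragment lengths report the nucleosomes beside it. The cells were C57BL/6J pre-B acute lymphoblastic leukaemia cells, transformed with BCR-ABL1 (a constantly active tyrosine kinase fusion) and lacking p19, and both genotypes shared these features. The 2 wild-type libraries (replicates 1 and 3) had intact PHF6 and the 3 knockout libraries (replicates 1, 2 and 3) lacked it, with 500000 nuclei per library. The sources used here do not give how the knockout was made, nor whether replicates came from separate cultures, clones or animals. All p-values below therefore reflect only how much these libraries vary.

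Each window reached 1000 bp to the left and right of its TSS, divided into 200 bins (10 bp each). Every library's signal was divided by its own mean over all deposited rows, so that 1 is the average bin and values below are called relative signal. The choice used the mean of the genotype means. A window was taken if its level (mean over the window) was at least 1.3, its centre (the trough, within 50 bp of the TSS) was below its flanks (50 to 200 bp on both sides), its flanks were at least as high as its outer parts (700 to 1000 bp), and the stronger flank was under 2 times the weaker. Its strongest bins left and right of the TSS, searched out to 400 bp, also had to lie 270 to 430 bp apart. There were 1532 such windows, which is 4.20% of the 36447 distinct windows, 15.9% of the 9610 with a level of 1.3 or more, and 62.5% of the 2452 windows that met all criteria except distance. The other two-flank windows were narrower (478 windows, under 270 bp) or wider (442 windows, over 430 bp). Level, flanks, trough and distance in the average of the libraries thus chose the windows and are given below as a description. The contrast between genotypes was not itself part of the rule, but it is not independent of it. A window with signal over the TSS in 1 genotype could be taken through the average with the other.

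A nucleosome is a stretch of DNA wrapped around histones. Promoters of active genes commonly hold a nucleosome-depleted stretch near the TSS, where transcription factors and the polymerase machinery bind, bordered by a positioned nucleosome upstream (called -1) and another downstream (+1), with further nucleosomes at regular steps beyond. PHF6 belongs to the plant homeodomain finger family, resides in the nucleus and nucleolus, and is recurrently mutated in leukaemia. The windows carry no gene name, coordinate or strand, so each is cited by its row number, and left and right do not mean upstream and downstream. For the same reason neither the Phf6 promoter nor marker genes of the cell type could be located to check the labels, and the name promoter rests on the deposited TSS list alone.

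The libraries differed in how many bins were empty. Empty bins (exactly 0) were 44.5% to 52.8% of the distinct windows in both wild-type libraries and knockout replicates 1 and 2, and 65.4% in knockout replicate 3. Within the 1532 windows the share was 22.1% to 25.9% in those 4 libraries and 35.8% in knockout replicate 3. These windows were 4.20% of the distinct windows and held 8.49% to 11.1% of each library's signal, and every one had signal in every library. Neighbouring TSSs share windows, so the number of genes is not known. In 77 pairs, made up of 151 of the 1532 windows, the profiles of all libraries coincided after a shift of up to 290 bp (Pearson's r of 0.95 or more over the 5 libraries side by side; no other pair exceeded 0.915). Shifts of up to 300 bp were searched, so profiles that coincide at larger shifts were not looked for. The largest shift between 2 of these windows that shared bins was 460 bp. Counted once each, the windows thus came from at most 1456 stretches. With 1 window per stretch the differences between genotypes given below kept their direction.

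The distance between the strongest bins had a median of 320 bp in the average of the libraries. In 754 windows (49.2%) it was 270 to 310 bp, in 495 (32.3%) 320 to 360 bp, and in 283 (18.5%) 370 to 430 bp. The plot of distances is highest near the lower limit of the rule, with 175 windows at 290 bp and 177 at 310 bp. A smaller rise lay below the range, with 38, 40 and 35 windows at 180, 190 and 200 bp. At 210 and 220 bp there were 27 and 28. Neither limit falls in a gap. There were 75 windows at 260 bp and 122 at 270 bp, and 28 each at 430 and 440 bp, followed by 37 at 450 bp. The TSS lay close to the middle: the midpoint of the strongest bins was a median of 25 bp from the TSS and within 50 bp in 1255 windows (81.9%). The nearer of the pair stood at a median of 135 bp and the farther at 185 bp. The left one was nearer in 685 windows and the right one in 755, with 92 at equal distance, and the left flank was the stronger in 781. The flanks had a median relative signal of 5.17 (5th to 95th percentile 2.45 to 12.1) and the trough 0.915 (0.0633 to 3.59), and the trough was a median of 17.7% of the flanks.

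**Figure D1:**
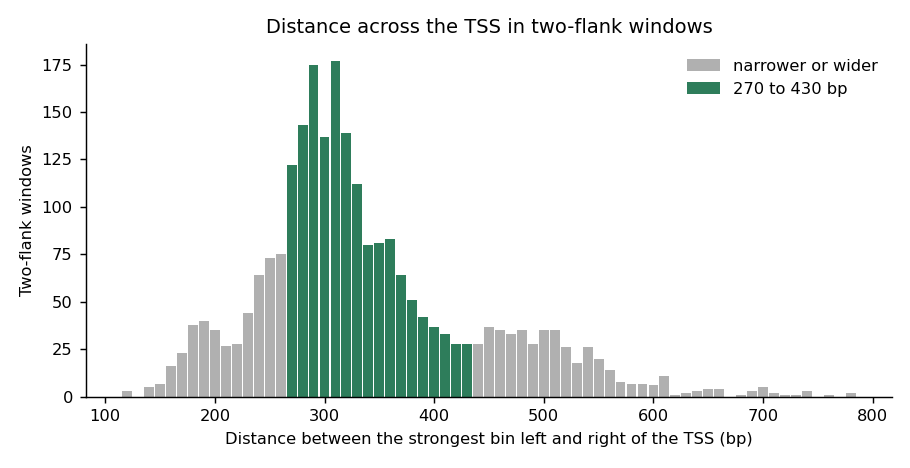
Number of two-flank windows (y axis) at each distance between the strongest bin left and right of the TSS (x axis, bp, steps of 10 bp) in the average of the libraries. Green bars are the 1532 windows at 270 to 430 bp, and grey bars are the 478 narrower and 442 wider windows.

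The limits cut through a continuum. The member with the lowest level, row 10883, and the window nearest below the level limit, row 6038, had flanks of 4.01 and 2.65 relative signal. At the short end of the distance range, row 5725 at 270 bp had flanks of 12.1 and a trough of 0.847, and row 1473, a narrower window at 260 bp, had flanks of 24.0 and a trough of 0.167. At the long end, row 21239 at 430 bp had flanks of 13.6 and a trough of 0.522, whereas row 15314 at 440 bp had flanks of 7.27 and a trough of 6.36. At the limit on the flank ratio, row 6684 was just inside with flanks of 16.1 and a trough of 3.09, and row 9596 just outside with flanks of 5.05 and a trough of 0.717. Where the trough had to be below the flanks, row 29257 was just inside (flanks 1.99, trough 1.98) and row 14676 just outside (flanks 0.952, trough 0.955). Where the flanks had to reach the outer parts, row 3497 was just inside (flanks 1.51, outer parts 1.47) and row 6557 just outside (2.53 and 2.54).

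To measure the spacing in data that had not chosen the windows, each library was left out in turn, the rule was applied to the other 4, and the distance was read in the library left out. Windows chosen without a library fell in the range of 270 to 430 bp in 61.8% and 58.9% of cases in wild-type replicates 1 and 3, and in 70.0%, 69.8% and 63.4% in knockout replicates 1, 2 and 3. Over all windows that the other 4 libraries put at a level of 1.3 or more, the shares were 45.9%, 43.2%, 49.9%, 51.3% and 47.0%. Windows chosen as narrow or wide fell in the range in 28.8% to 37.8% of cases, lower than the standard windows in every library. The median distance in the library left out was 330 bp in 4 libraries and 340 bp in knockout replicate 3. The share in range was 60.3% ± 2.01 in wild type (SD, n = 2) and 67.7% ± 3.76 in knockout (SD, n = 3), with no overlap, but the difference did not pass the exact permutation test (p = 0.2, adjusted p = 0.28 over 7 measures, two-sided). With 2 against 3 libraries the smallest p this test can give is 0.1, so none of the comparisons of single values between genotypes could pass 0.05. The choices were also not alike. Without 1 wild-type library the wild-type mean rested on the other alone, whereas without 1 knockout library 2 remained. Windows shared with the choice from all libraries were 1048 and 1083 without wild-type replicates 1 and 3. They were 1255, 1214 and 1233 without knockout replicates 1, 2 and 3. What this adds to the genotype difference was not tested.

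**Figure D2:**
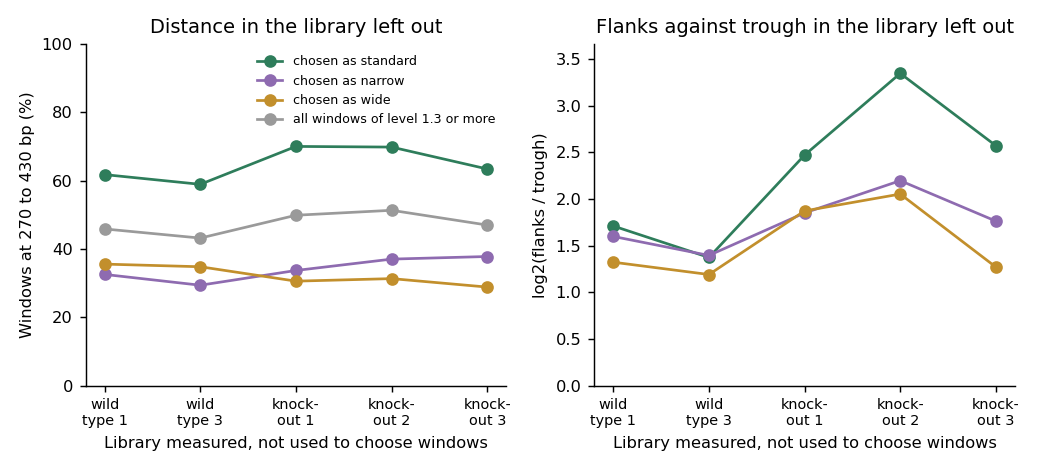
Left, the share of windows (y axis, %) whose distance lay at 270 to 430 bp in a library that had no part in choosing them (x axis), for windows chosen as standard, narrow or wide and for all windows of level 1.3 or more; right, the log2 ratio of flank to trough signal in the same libraries. Standard windows sit at 58.9% to 70.0% on the left, above the other sets in all 5 libraries, and at 1.37 to 3.35 on the right, where the knockout libraries are the 3 highest.

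The main comparison asked whether this arrangement differed without PHF6. In the average profile the centre held less signal and the flanks more in the knockout libraries. The trough had a relative signal of 1.53 and 1.73 in wild-type replicates 1 and 3, and of 1.01, 0.670 and 1.07 in knockout replicates 1, 2 and 3. The genotypes did not overlap, and the knockout mean was 0.563 times the wild-type mean (1.63 ± 0.143, SD, n = 2, against 0.919 ± 0.217, SD, n = 3; exact permutation p = 0.1, adjusted p = 0.233 over 14 measures). As deposited, without scaling, the trough was 0.816 and 0.933 in wild type, against 0.609, 0.375 and 0.339 in knockout, so the order does not rest on the scaling to the library mean. Of the trough bins, 28.5% and 25.1% were empty in wild type, against 36.6%, 51.8% and 44.2% in knockout. Emptiness of the whole library also moved with genotype in knockout replicates 2 and 3 (52.8% and 65.4% of bins at 0). In knockout replicate 1 that share, 45.2%, lay between the wild-type values of 47.0% and 44.5%, and its trough was below both of theirs. This is a single library, and whether emptiness plays a part in the lower trough was not tested.

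Signal in the flanks was higher in each knockout library than in either wild-type library. It was 5.48 and 4.91 in wild type, against 6.06, 7.21 and 6.96 in knockout, a mean ratio of 1.297 (5.20 ± 0.404 against 6.74 ± 0.604; exact permutation p = 0.2, adjusted p = 0.233). Unlike the trough, the flanks depended on the scaling: as deposited they were 2.92 and 2.65 in wild type, against 3.64, 4.03 and 2.20 in knockout, where replicate 3, the library with the lowest mean signal, was the lowest of all. Per library, the log2 ratio of flank to trough signal does not depend on scaling by a constant. This ratio was 1.84 and 1.504 in wild type, against 2.58, 3.43 and 2.70 in knockout, a difference of 1.23 with no overlap (exact permutation p = 0.1, adjusted p = 0.233). In libraries that had not chosen the windows it was 1.71 and 1.37 against 2.47, 3.35 and 2.57. Those choices were not alike, as the wild-type values come from windows chosen with a single wild-type library. The choice was also made from a single library of each genotype, in 6 ways, and the 3 unused libraries were read. The difference then ranged from 0.799 to 1.48, and the wild-type library was below both knockout libraries in every choice.

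**Figure D3:**
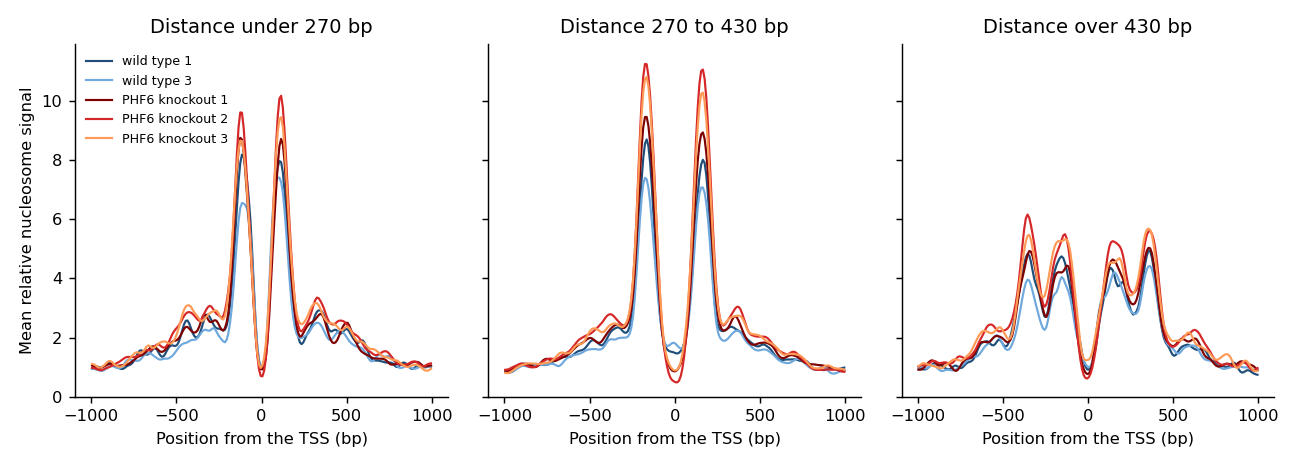
Mean relative nucleosome signal (y axis) by position from the TSS (x axis, bp) in the narrow, standard and wide two-flank windows, one line per library (blue, wild type; red and orange, PHF6 knockout). In the standard windows the flank maxima lie between 7.07 and 11.2, and at the TSS the wild-type lines stay above the 3 knockout lines.

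Within 20 bp of the TSS the profile of the standard windows was 1.49 and 1.79 in wild type, against 0.880, 0.515 and 0.911 in knockout. The lowest bin between the centre and 100 bp was 1.53 to the left and 1.49 to the right in wild-type replicate 1, close to its centre, and 1.72 and 1.63 in wild-type replicate 3, below its centre. In the knockout libraries it was 0.948, 0.639 and 1.02 to the left and 0.997, 0.547 and 1.003 to the right, above the centre in each. Over this narrower centre the knockout mean was 0.469 times the wild-type mean (exact permutation p = 0.1). That width was chosen after the profiles had been seen.

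Counted by window, a trough at exactly 0 was found in 8.16% and 7.05% of the standard windows in wild type, against 11.0%, 20.4% and 15.8% in knockout. In the narrow windows the shares were 2.51% and 1.67%, against 3.14%, 3.77% and 4.81%. In the wide windows they were 7.01% and 7.24%, against 8.37%, 18.6% and 12.4%. The ratio of knockout to wild type was thus alike in the 3 classes (2.07 standard, 1.87 narrow, 1.84 wide). At level 1.3 or more a trough at 0 was found in 6.14% and 4.86%, against 7.94%, 14.6% and 11.7%. Over all distinct windows the genotypes overlapped (28.3% and 25.3%, against 27.4%, 36.7% and 48.7%). A trough under 0.5 times the flanks was found in 76.5% and 71.5% in wild type, against in 85.5%, 91.4% and 85.4% in knockout (exact permutation p = 0.1 for this share, adjusted p = 0.233). At level 1.3 or more that share was 63.5% and 59.5%, against 68.9%, 74.0% and 69.9%. Conversely, a trough at or above the flanks, meaning as much signal over the TSS as beside it, was found in 179 and 230 windows (11.7% and 15.01%) in wild type, and in 101, 49 and 107 windows (6.59%, 3.20% and 6.98%) in knockout. At level 1.3 or more these shares were 22.4% and 25.7%, against 19.9%, 17.0% and 19.3%, and over all distinct windows 27.3% and 29.2%, against 26.9%, 23.1% and 17.9%, so they were lower in knockout there too. In 26 windows (1.70%) the trough was at or above the flanks in both wild-type libraries and under 0.5 times the flanks in all 3 knockout libraries; over all distinct windows this was so in 1.17%, and at level 1.3 or more in 1.31%. The opposite was a trough at or above the flanks in all 3 knockout libraries and under 0.5 times the flanks in both wild-type libraries. It was seen in 1 window (0.0653%), against 0.357% of all distinct windows and 0.291% at level 1.3 or more. In the 26 windows the mean trough was 6.94 and 8.18 for wild type versus 1.01, 0.338 and 0.513 for knockout. Their flanks were 4.53 and 4.72 against 6.94, 8.84 and 8.40. These windows were picked by those values, and met the rule on the trough only through the knockout libraries. The values are therefore a description.

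Whether the difference was larger at the standard distance than at other distances was tested on the difference itself. The distance that set the classes was read in the average of both genotypes, so classes and contrast are not independent. The log2 flank to trough ratio of the standard minus that of the narrow windows was 0.241 and 0.0832 in wild type, against 0.679, 1.31 and 0.878 in knockout, a change of 0.794 with no overlap (exact permutation p = 0.1, adjusted p = 0.175 over 14 contrasts). Against the wide windows it was 0.272 and 0.106 in wild type, against 0.811, 1.23 and 1.17 in knockout, a change of 0.883 (exact permutation p = 0.1, adjusted p = 0.175). Most of it lay in the trough. On the log2 scale the trough of the standard windows dropped by 0.654 more than that of the narrow and by 0.728 more than that of the wide windows, both with exact permutation p = 0.1, whereas the flanks differed by 0.140 and 0.155. The other contrasts were -0.00126 (narrow) and -0.0962 (wide) for the outer parts, 0.0396 and 0.0459 for the height of the next maximum outward of the flanks, and 0.0375 and 0.118 for its height over the dip before it (exact permutation p from 0.1 to 1), and all but that of the outer parts against the wide windows changed sign under some choice of windows or libraries. In the narrow windows the trough was 1.96 and 1.97 in wild type against 1.65, 1.61 and 1.88 in knockout. In the wide windows it was 1.25 and 1.31 against 1.13, 0.947 and 1.51, and the genotypes overlapped. The trough of a narrow window takes in the slopes of its flanks. Restricted to 20 bp around the TSS, the narrow windows held 1.11 and 1.09 in wild type, against 0.997, 0.800 and 1.11 in knockout, and the contrasts with the standard windows were -0.935 (narrow) and -0.957 (wide), both with exact permutation p = 0.1.

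**Figure D4:**
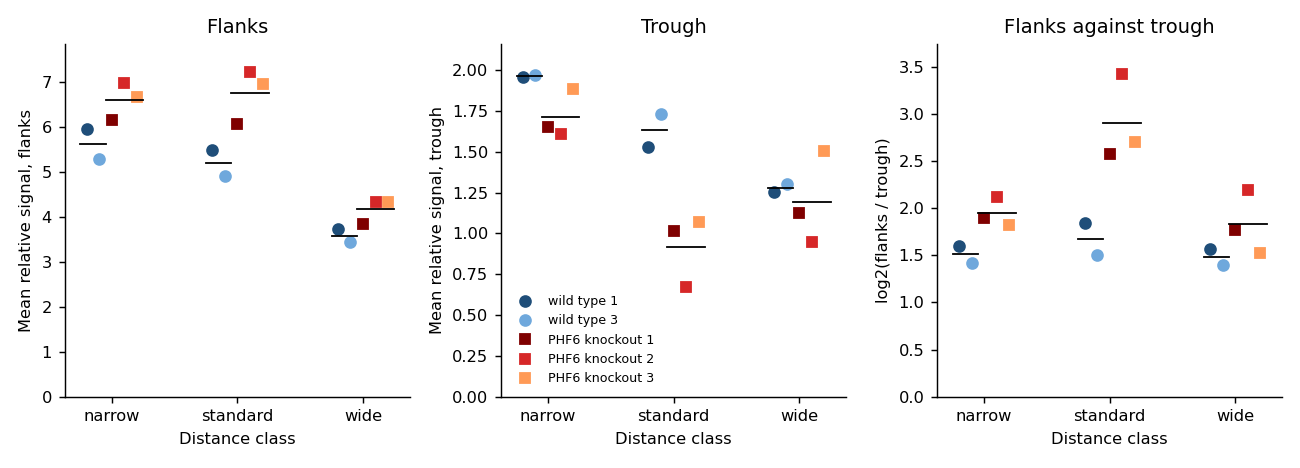
Mean relative signal of the flanks, of the trough, and the log2 ratio of the 2 (y axes) in narrow, standard and wide two-flank windows (x axis). Circles are the 2 wild-type and squares the 3 knockout libraries, and black bars are genotype means; in the standard windows the trough is 1.53 and 1.73 in wild type, against 0.670 to 1.07 in knockout.

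The trough was lower in knockout in each band of distance within the range. Its ratio of knockout to wild type was 0.669 in the 754 windows at 270 to 310 bp, 0.469 in the 495 at 320 to 360 bp and 0.556 in the 283 at 370 to 430 bp. In the middle band the values were 1.92 and 2.04 in wild type, against 1.13, 0.586 and 1.07 in knockout, and in all 3 bands the genotypes did not overlap (exact permutation p = 0.1 or 0.2, adjusted p = 0.258 over 49 values). Differences between the bands were not tested. The windows were also cut by level into 4 sets of 383, whose median levels were 1.54, 1.95, 2.43 and 3.31. The ratio for the trough was 0.618, 0.613, 0.521 and 0.537, and that for the flanks 1.22, 1.23, 1.302 and 1.36, from the lowest set to the highest.

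The distance between the strongest bins, read window by window and then averaged, was slightly longer in knockout. The difference in means was about 1 bin of 10 bp and was not tested. The maxima of the average profile stood at -165 and 165 bp in wild-type replicate 1 and knockout replicates 1 and 3. They stood at -175 and 155 bp in wild-type replicate 3 and at -175 and 165 bp in knockout replicate 2. Read in each library, the median distance was 330 and 320 bp in wild type, against 330 bp in all 3 knockout libraries. The mean distance was 350 and 342 bp in wild type, against 354, 357 and 359 bp in knockout, with no overlap and a difference of 10.2 bp. The nearer maximum lay on average at 132 and 126 bp from the TSS in wild type, against at 136, 137 and 135 bp in knockout, with no overlap (a difference of 6.79 bp; exact permutation p = 0.1, adjusted p = 0.233). For the farther maximum the means were 218 and 216 bp against 218, 220 and 223 bp (exact permutation p = 0.2). These distances were also part of the rule, in the average of the libraries. Window by window, the distance was longer in knockout without overlap in 142 (9.31%) and shorter in 139 (9.11%). Of all windows tested these were 10.2% and 9.72%. The median distance differed by 21.7 bp in the narrow and 2.5 bp in the wide windows, and the nearer maximum by 7.91 and 0.882 bp.

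Beyond the flanks the windows held a further maximum. The rule did not name it, but the level and the search for the strongest bin, out to 400 bp, take in much of the stretch where it lies and so limit its height. Measured outward from each flank maximum, it lay at 196 and 199 bp in wild type, against at 200, 207 and 206 bp in knockout, a step of the size of 1 nucleosome with its linker. The knockout libraries were the 3 farthest, by a mean of 7.14 bp (197 ± 1.76 against 205 ± 3.58 bp; exact permutation p = 0.2, adjusted p = 0.233). Its height was 2.79 and 2.51 in wild type, against 3.19, 3.74 and 3.23 in knockout (ratio 1.28; exact permutation p = 0.1, adjusted p = 0.233). Relative to the dip before it, the height was 2.37 and 2.21 against 2.62, 3.31 and 2.43. The second maximum outward lay at 366 and 381 bp in wild type, against 366, 375 and 368 bp in knockout, with overlap and a difference of -4.09 bp whose direction depended on the choice of windows and on wild-type replicate 3, without which it was 3.42 bp (exact permutation p = 0.6, adjusted p = 0.6). As a description over the 5 libraries, the step was longer than in the narrow windows by 5.97 ± 3.46 bp (SD, n = 5, longer in 5 of 5) and differed from that in the wide windows by -5.07 ± 4.997 bp (longer in 1 of 5). The next maximum stood higher over its dip by 0.127 ± 0.176 than in the narrow windows (4 of 5 libraries) and by 0.300 ± 0.140 than in the wide windows (5 of 5). For the second maximum outward the differences were 20.1 ± 26.1 bp (narrow) and 2.17 ± 27.95 bp (wide), smaller than their spread. Far from the TSS, at 700 to 1000 bp, signal was 1.03 and 0.998 in wild type, against 1.08, 1.06 and 1.08 in knockout. That small difference turned around without scaling (-0.0163 in deposited units) and in medians over windows (-0.0230).

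**Figure D5:**
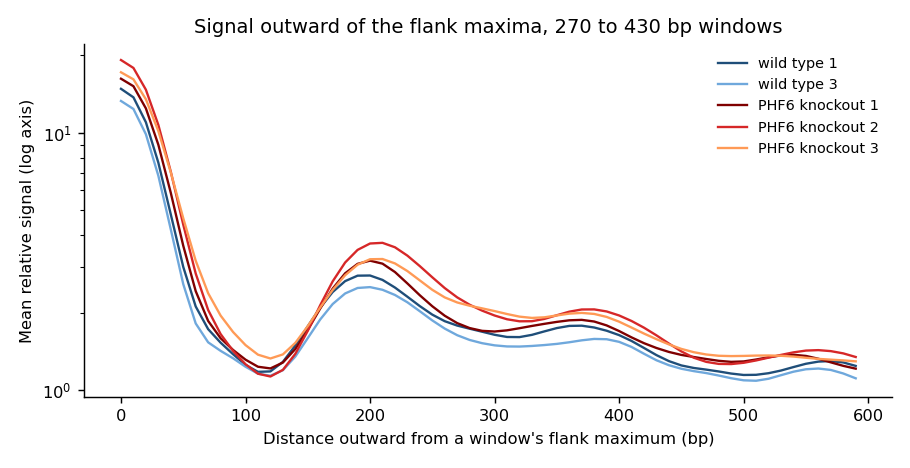
Mean relative signal (y axis, logarithmic) by distance outward from a window's flank maximum (x axis, bp) in the 1532 standard windows, averaged over both sides, one line per library. After the flank maximum at 0 a dip and a further maximum at 196 to 207 bp follow in every library, and the 3 knockout lines are the highest at that maximum (3.19 to 3.74, against 2.51 and 2.79 in wild type).

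How well the libraries agreed on the shape of single windows was described by Pearson's r over the 200 bins, which share library and neighbouring bins and are not independent. The median r in the standard windows was 0.482 between the wild-type libraries, 0.553 to 0.644 between knockout libraries, and 0.434 to 0.559 between genotypes. Knockout replicates 1 and 2 were the most alike.

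Single windows were then tested with limma on log2(relative signal + 0.1) across all 36447 distinct windows, with Benjamini-Hochberg adjustment and a threshold of 0.05. No window was called for the whole window, flanks, trough, flanks against trough or distance. The smallest adjusted p among the standard windows was 0.135 for the whole window. At an unadjusted p under 0.05, 261 standard windows (17.0%) were higher and 31 (2.02%) lower in knockout over the whole window, where all distinct windows gave 4.54% higher and 6.67% lower, and those of level 1.3 or more 14.8% and 2.32%. The standard windows were thus near other windows of their level in total signal. For the flanks, 196 (12.8%) were higher and 21 lower, against 3.39% and 4.42% of all windows and 9.73% and 1.91% at level 1.3 or more. For the trough, 27 were higher and 153 (9.99%) lower at that p, against 1.28% and 5.7% of all windows and 2.55% and 6.78% at level 1.3 or more. Leaving out wild-type replicate 1 or 3 gave 134 and 117 trough calls among the standard windows, 133 and 116 of them lower in knockout, where 10.1% and 8.79% of all windows were called lower, with the lone wild-type library assumed to vary like the knockout libraries. As a share of the standard windows, these lower calls were less frequent than over all windows, whichever wild-type library was left out. They therefore do not set the standard windows apart. For flanks against trough, 242 (15.8%) were higher and 21 lower, against 4.93% and 3.15% of all windows and 9.46% and 1.88% at level 1.3 or more. For the distance, 28 standard windows were longer and 31 shorter at that p, of 1525 with signal on both sides in each library, against 3.97% and 3.62% of the 16284 windows tested.

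The median difference in flanks against trough, on the log2 scale, was 1.17 in the standard windows and 0.639 in all windows of level 1.3 or more. It was 0.263 in the narrow windows, 0.484 in the wide windows and 0.0873 over all windows. For the trough the medians were -0.833 in the standard windows, -0.432 at level 1.3 or more and -0.280 over all windows. In the narrow and wide windows they were -0.114 and -0.223. For the whole window the median was 0.196 in the standard windows and -0.213 over all windows, with 0.189 at level 1.3 or more. There the narrow windows had 0.152 and the wide windows 0.208, above the standard windows. Quantile normalization, which gives all libraries the same distribution of values, brought the median of the whole window to 0.0361 in the standard windows and to -0.00540 over all windows. Under it the median of the trough in the standard windows was -0.200 and that of flanks against trough 0.318, with 0.103 and -0.0264 at level 1.3 or more. The directions in the standard windows stayed as they were, with smaller sizes. In the narrow and wide windows the medians of the trough (0.397 and 0.430) and of flanks against trough (-0.499 and -0.221) turned around under it.

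Where fewer weak windows entered the fit, some standard windows passed. Among the 9610 windows of level 1.3 or more, an alternative added after the data were seen, 66 of the 1532 passed for the whole window, 64 higher (4.18%) and 2 lower (0.131%) in knockout, close to the 3.44% and 0.114% of all windows in that fit. The count rested on single libraries: it was 0 without wild-type replicate 3, 3 without knockout replicate 2, 15 without wild-type replicate 1, 70 without knockout replicate 1 and 47 without knockout replicate 3. With quantile normalization in the same fit 10 passed, 6 higher and 4 lower, against 0.333% and 0.198% of all windows, so the predominance of higher windows depended on the scaling. Leaving out the 25% of windows with the lowest mean instead gave 32 calls, 30 higher (1.96%) and 2 lower (0.131%). In that fit all windows gave 0.563% and 0.0915%, and those of level 1.3 or more 1.57% and 0.0937%. The standard windows were thus near other windows of their level here too.

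The 64 windows called higher had a mean relative signal of 2.18 and 1.99 over the whole window in wild type, against of 3.87, 5.05 and 4.76 in knockout. Their flanks were 5.68 and 5.02 against 10.6, 14.5 and 13.6. Their trough was 0.954 and 1.32 against 1.14, 0.779 and 1.01, and overlapped between genotypes. These windows were picked for a higher whole-window signal, of which the flanks are a large part, so the values are a description. Row 23001 had the smallest p of the standard windows in the fit at level 1.3 or more. Its whole-window signal was 2.57 and 2.65 in wild type, against 6.27, 9.13 and 7.14 in knockout (log2 difference 1.47 ± 0.275, SE; limma adjusted p = 0.135 over all windows and 0.000187 among those of level 1.3 or more), with flanks of 9.79 and 10.5 against 28.2, 47.8 and 40.7 and a trough near 0 in all libraries. Its distance was 290 bp in both wild-type libraries and 280, 300 and 300 bp in knockout.

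In row 13140, whose unadjusted p over all windows was smaller than that of row 23001, the whole window held 1.73 and 1.02 in wild type, against 4.41, 4.03 and 4.71 in knockout (log2 difference 1.65 ± 0.285, SE; limma adjusted p = 0.135 over all windows and 0.000525 at level 1.3 or more). Its trough was 1.66 and 1.31 in wild type, against 0 in all 3 knockout libraries. Row 21239, at the long end of the range, held 2.77 and 3.10 against 6.66, 8.46 and 6.84, and its own distance was 490 and 430 bp in wild type, against 300, 230 and 430 bp in knockout. Rows 30352 and 8342 were the remaining members among the 5 smallest p-values, with differences of 1.51 and 1.33.

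Lower in knockout was row 4725, with 3.23 and 2.59 in wild type, against 1.43, 0.775 and 0.833 in knockout (log2 difference -1.47 ± 0.327, SE; limma adjusted p = 0.202 over all windows and 0.0134 at level 1.3 or more). Its flanks were 4.49 and 5.56 against 2.43, 1.43 and 1.70. Row 1825 held 2.04 and 3.30 against 1.16, 0.705 and 0.988 (limma adjusted p = 0.202 and 0.0273). In rows 12722, 372 and 2029, next in order of p, the differences of -1.02, -0.936 and -0.815 passed in neither fit.

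The 3 windows with the smallest p for a higher flank to trough contrast in knockout had signal over the TSS in wild type and little or none in knockout. In row 11716 the trough was 9.53 and 11.8 in wild type, against 0 in each knockout library, while the flanks were 8.72 and 6.04 against 6.94, 8.80 and 7.19. In row 17463 the trough was 6.26 and 3.25 against 0.00162, 0 and 0.0187. There the distance between the strongest bins was 180 and 220 bp in wild type, against 320, 340 and 310 bp in knockout. Row 8187 kept its distance (330 and 330 bp, against 320, 340 and 330 bp), and its trough was 1.03 and 1.74 against 0, 0 and 0.00267. None of these 3 was called in the fit over all windows (limma adjusted p = 0.557 each). In row 11716 the trough was above the flanks in both wild-type libraries. That row met the rule on the trough only through the knockout libraries. In row 17463 the trough was above the flanks, 5.88, in wild-type replicate 1 and below them, 4.10, in replicate 3. All 3 windows were picked by p, so their values are a description.

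The opposite pattern occurred in single windows. Row 13357 had a trough of 0.123 and 0.167 in wild type, against of 3.86, 7.47 and 8.64 in knockout. Row 33546 had 0.191 and 1.14 against 7.09, 6.38 and 11.0, and its distance was 570 and 590 bp in wild type, against 360, 340 and 340 bp in knockout. In row 1512 the trough was 0.675 and 0.112 against 11.2, 2.93 and 6.24. All 3 had a limma adjusted p of 0.557 for flanks against trough. In the knockout means their troughs, 6.66, 8.17 and 6.81, were above their flanks, 5.18, 7.48 and 4.66. These windows thus met the rule on the trough only through the wild-type libraries.

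For the distance itself, the windows named by p, 2 longer and 2 shorter in knockout, differed by 322 and 362 bp and by -437 and -383 bp. In row 5969 it was 20 and 10 bp in wild type, where the trough held 22.9 and 9.59, and 340, 310 and 480 bp in knockout, where the trough held 0.744, 0 and 0. Row 17787 went from 280 and 270 bp to 630, 570 and 590 bp. Rows 8356 (730 and 710 bp against 280, 310 and 260 bp) and 12177 (720 and 560 bp against 220, 300 and 250 bp) had the shorter distance in knockout. The limma adjusted p was 0.547 for each of the 4. The flanks of row 5969 were 4.72 and 5.25 in wild type, below its trough there. That row met the rule on the trough only through the knockout libraries.

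Rows 10340 and 13336 had the highest levels, 9.35 and 9.30, but are 1 stretch seen in windows shifted by about 30 bp (r = 0.995). The trough of row 10340 was 17.1 and 28.8 in wild type, against 4.83, 0.0311 and 0 in knockout, with flanks of 14.2 and 9.21 against 14.7, 24.1 and 26.6. Its trough was above its flanks in wild type, so row 10340 met the rule on the trough only through the knockout libraries. Row 3160, with a level of 7.62, had flanks of 21.9 and 17.4 in wild type, against 21.4, 54.3 and 33.3 in knockout around a trough of at most 1.46. The 4 windows whose libraries were most alike were rows 4534, 3307, 3396 and 11849, with a lowest Pearson's r between any 2 libraries of 0.925, 0.921, 0.914 and 0.902. In row 3307 the distance was 330 and 340 bp in wild type, against 340, 330 and 330 bp in knockout. In row 11849 it was 290 and 280 bp against 280, 290 and 290 bp, with a trough of at most 0.00644 and flanks of 29.3 and 19.2 against 32.1, 40.8 and 44.0. The other two were less even despite the high r. Row 4534 had a distance of 320 and 330 bp against 300, 320 and 520 bp, and a trough of 0.464 and 4.10 against 9.52, 2.53 and 0.183. Row 3396 had a distance of 330 and 340 bp against 340, 330 and 560 bp, and a trough of 3.34 and 0.0397 against 0.00983, 0.0202 and 0.158.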

How the data were processed

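Nucleosome signal around TSSs was analysed in 2 wild-type and 3 PHF6 knockout ATAC-seq libraries, grouped by their labels. The authors deposited a matrix of signal per library, with 37310 rows and 200 bins of 10 bp and no header. The file names attribute the values to NucleoATAC; Bowtie2, MACS2 and mm9 are named in the submitters' processing notes. Versions, settings and scaling were not given in any source used here. No counts are in these files, so depth is unknown and no counting interval is given. Rows with no signal (818) and repeats (45) were left out.

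Signal was divided by each matrix's mean. Profiles were summarised in Python 3.11.15 with numpy 2.4.6 and compared by exact two-sided permutation tests over the 10 splits into 2 and 3 libraries. Each next maximum was placed by a parabola through 5 bins. Windows were tested in limma 3.58.1 (R 4.3.3, trend, Benjamini-Hochberg), which was tested on simulated data. The windows, classes and tests were chosen with earlier results of these data known. Named are the smallest limma p-values in each direction with non-overlapping genotypes (5 for the whole window, 3 for flanks against trough, 2 for distance), the 3 highest levels, the 4 highest lowest correlations, and the windows nearest to each threshold. Alternatives were other scalings, filters, pseudocounts and choices of windows, 1 window per stretch of coinciding profiles (added after the data were seen), a replicate block, and leaving out each library. No sequence is printed, because the rows have no coordinates.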

Additional observations from a re-analysis of the deposited data

How the results depend on the processing

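The standard windows numbered 1378 to 1611 under other level limits (1.5 and 1.2), scaling, weighting and smoothing, and 1424 to 1503 with 1 library left out, of which 1048 to 1255 were among the 1532. Within the standard windows, differences between genotypes in whole window, flanks, trough, log2 flank to trough ratio, nearer maximum and next maximum kept their direction under every alternative run. With 1 library left out the ratio's difference was 0.965 to 1.40, and in libraries that had not chosen the windows 0.979 to 1.42. The difference in median distance (5 bp) was 0 in 3 of the 6 choices from 2 libraries and 0 to 10 bp with 1 library left out, and that in libraries that had not chosen the windows 0 to 5 bp. Outer parts changed sign without scaling (-0.0163) and in medians (-0.0230), the farther maximum when chosen from wild-type replicate 1 and knockout replicate 3 (-3.89 bp), and the whole-window contrasts when chosen from wild-type replicate 1 and knockout replicate 2 (-0.00256 against narrow, -0.0459 against wide). The difference in the second maximum outward (-4.09 bp) changed sign in 3 choices from 2 libraries (5.15, 10.2 and 3.91 bp) and ranged from -11.6 to 3.42 bp with 1 library left out. Among the contrasts with the narrow windows, that of the outer parts became 0.0384 and 0.0811 in 2 such choices, 0.0267 with the replicate block and -0.0267 to 0.0267 with 1 library left out; that of the next maximum's height became -0.0755 and -0.0936; and that of its height over the dip became -0.0590, with -0.0227 under the replicate block and -0.0227 to 0.0847 with 1 library left out. Against the wide windows the height became -0.0192, -0.0144 and -0.0359, and the height over the dip -0.120 and -0.0155. The contrasts in trough, flanks and log2 flank to trough ratio kept their direction under every alternative run. The cause was not tested.

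Limma calls among the standard windows for the whole window were 0 over all windows, 1 after quantile normalization, 2 at a pseudocount of 0.5, 32 when the lowest 25% were left out and 66 at level 1.3 or more, where quantile normalization gave 10. The shares of all windows called in the last 3 fits are given above. Fewer weak windows were tested in the last 3. With 1 library left out they were 0 over all windows, 0 to 70 at level 1.3 or more and 1 to 34 without the lowest 25%. Calls for the flanks were 0 over all windows, 5 (0.326%) without the lowest 25% and 7 (0.457%) at level 1.3 or more, all higher in knockout. In those 2 filtered fits 0.117% and 0.458% of all windows tested were called higher. In the fit without the lowest 25%, windows of level 1.3 or more gave 0.333%. With quantile normalization at level 1.3 or more 1 standard window (0.0653%) was called higher, against 0.0312% of all windows in that fit. Without wild-type replicate 1 or 3, a smaller share of the standard windows than of all windows was called lower for the trough. Calls for the trough were 0, but 134 (133 lower in knockout) without wild-type replicate 1 and 117 (116 lower) without wild-type replicate 3, and 0 to 134 in all; the lone wild-type library was then assumed to vary like the knockout libraries.

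Whether the replicate numbers pair the libraries could not be decided. Same-numbered libraries had correlations of deviations of -0.0610 and -0.0376. With 2 wild-type libraries the deviations of 1 mirror those of the other, so these 2 values are not independent. With the replicate block in the fit 0 standard windows were called over all windows and 3 at level 1.3 or more, and the difference within numbers 1 and 3 in the log2 flank to trough ratio was 0.965. Groups of 2 and 3 libraries are too small to test for outlying libraries, and with no read counts the depth behind a bin is unknown, so a bin at 0 cannot be told apart from one that was not covered.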
